A study of Mus musculus with 30 samples.

Results

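The comparison set 3 arrays of mouse embryonic stem cells given a 12 h pulse of doxycycline 1 day after its withdrawal against 3 time-matched control arrays. The 6 arrays were taken by their group labels, day 1 +12h Dox and day 1 -12h Dox, from the 30 arrays of the series, which holds 10 groups of 3. All of them came from a single Nanog rescue clone, NgR (AINV15_Nanog_Rescue Clone in the labels), derived from rtTA-expressing embryonic stem cells and kept on primary mouse embryonic fibroblasts. The clone was grown in doxycycline at 1 ug/ml, which keeps its Nanog on, and was then withdrawn. The pulsed group received doxycycline again for 12 h, at a dose the labels do not give separately. The control group was left untreated and harvested at the same time. The groups used as reference points were day 0 +Dox, never withdrawn, and day 1 -Dox, harvested 1 day after withdrawal without the further 12 h. No group received doxycycline without a doxycycline-dependent Nanog, so effects of the drug and of Nanog cannot be told apart. RNA of feeder fibroblasts may be present in every group. Changes are differences of group means of log2 signal with their standard errors (SE), pulsed minus control. A transcript cluster, the set of array probes for 1 transcription unit, was called when its limma p, adjusted over 23385 clusters, was under 0.05. Nothing in the labels tells whether the replicates of a group came from separate cultures, so the p-values speak only for the spread among arrays, which may be technical.

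Nanog is a homeodomain transcription factor of the naive pluripotent state, in which embryonic stem cells can self-renew or leave for differentiation. It works with Pou5f1 (Oct4) and Sox2 on shared regulatory elements, and its level varies between cells of a culture. Cells with little Nanog are more prone to differentiate, and autocrine FGF4 acting through ERK is a main signal for leaving the naive state. A pulse after a short absence therefore asks which transcripts move within hours of Nanog's return.

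The pulse restored Nanog and raised a small set of naive genes that includes Mras, Prdm14 and Klf4. It lowered far more transcripts, among them the signalling peptide gene Apela, the enzyme gene Car4, FGF feedback genes and p53 targets. Some microRNA genes were also lower, but their share of the microRNA clusters (4.26%) was near the 3.2% of all clusters. Of the 23385 clusters, 877 were called (3.75%), 128 of them higher (0.547%) and 749 lower (3.2%). At an unadjusted p under 0.05 there were 3800. Most changes were small: 54 of the called clusters moved by at least 1.5-fold and 3 by at least 2-fold. The median change over all clusters was 0.01. The 3 arrays of one group lay wholly above or below those of the other in 19.7% of clusters. The largest rises and falls named below were picked among called clusters with such separation, so their separation is no further support.

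The arrays differed in spread, and the count of calls differed between fits. The interquartile range of an array was 2.50, 2.39 and 2.58 (log2) in the pulsed replicates, a mean of 2.49 ± 0.092 (SD, n = 3). In the control replicates it was 2.50, 2.64 and 2.76, a mean of 2.63 ± 0.133 (SD, n = 3). The groups overlapped, and the difference of -0.144 had an exact two-sided permutation p of 0.2, where 0.1 is the smallest that 3 against 3 can give. Control replicate 3 had the widest array. With the clusters ranked by mean signal and cut into 5 groups of 4677, the median change was 0.06, 0.06, 0.01, -0.08 and -0.02 from the dimmest to the brightest. The part of array spread in the changes was not tested beyond the fits that follow. With the interquartile range as a covariate, 1097 clusters were called, 419 higher (1.79%) and 678 lower (2.9%), and 726 of the 877 were among them. Without control replicate 3, 906 were called, 288 higher and 618 lower. The count was 372 without pulsed replicate 1, 288 without pulsed replicate 2, 659 without pulsed replicate 3, 782 without control replicate 1 and 319 without control replicate 2. Clusters called lower outnumbered those called higher in all of these fits. In 201 clusters, 24 higher and 177 lower, the call and its direction held in all 6 of these leave-one-out fits and in 5 alternatives of scaling or variance.

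**Figure D1:**
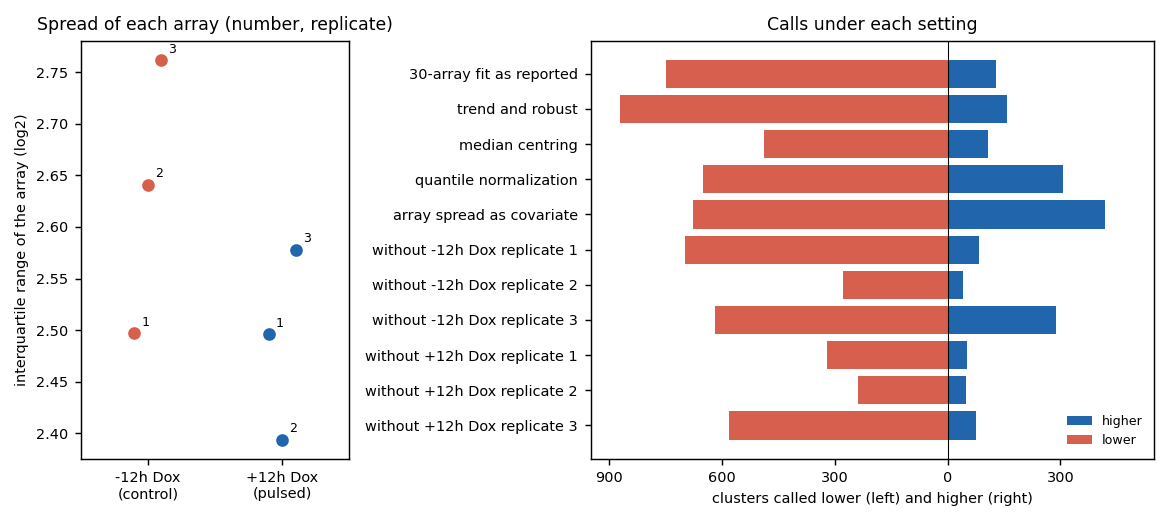
Left, the interquartile range (log2) of the 3 control and the 3 pulsed arrays, numbered by replicate; the control arrays reach 2.76 and the pulsed arrays 2.58. Right, the number of clusters called lower (left of 0) and higher (right of 0) in the fit as reported (749 and 128) and under other settings, with lower calls in the majority in each one drawn.

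Nanog signal was 11.10, 11.11 and 11.06 in the pulsed arrays and 10.28, 10.36 and 10.27 in the controls. The pulsed arrays were all higher, with no overlap. The rise was 0.79 ± 0.080 (SE; adjusted p = 3.33e-06), which set Nanog at 11.09 ± 0.029 (SD, n = 3), beside 11.03 ± 0.023 at day 0 (a difference of 0.06; adjusted p = 0.74). The values do not separate transgene from endogenous transcript here.

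Mras, a Ras-related small GTPase gene, had the largest rise of the tested clusters. Its signal was 8.49, 8.44 and 8.41 in pulsed arrays and 7.34, 7.46 and 7.40 in controls. The groups lay far apart, a rise of 1.05 ± 0.074 (SE; adjusted p = 2.09e-09). Withdrawal had taken Mras from 9.63 to 7.69 within the first day, and the pulsed mean was 0.76 above day 1 -Dox (adjusted p = 1.43e-06) and differed from day 0 by -1.18 (adjusted p = 6.39e-11). A dimmer Mras cluster had control arrays at 6.71, 6.62 and 6.19 and pulsed arrays at 6.73, 6.95 and 6.81, and was not called.

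Prdm14, a PR-domain regulator that represses FGF signalling and DNA methylation in naive cells, also rose. Its signal was 8.35, 8.26 and 8.33 after the pulse and 7.59, 7.55 and 7.70 without it, again without overlap. The rise of 0.70 ± 0.075 (SE; adjusted p = 6.14e-06) left a difference of -0.12 from day 0 (adjusted p = 0.362), where day 1 -Dox had stood at -0.75. Klf4, a Kruppel-like reprogramming factor, was at 8.48, 8.49 and 8.72 against 8.08, 8.30 and 8.13. It rose by 0.39 ± 0.093 (SE; adjusted p = 0.015), although the call was lost without control replicate 1 (adjusted p = 0.0599) or pulsed replicate 3 (adjusted p = 0.0903). Calcoco2, an autophagy receptor gene, rose in both of its clusters, by 0.78 and 0.58. Its control replicate 3 was close to the pulsed range, at 9.09 where the other controls were 8.19 and 8.60. The brighter cluster lost its call without control replicate 1 (adjusted p = 0.0604) or pulsed replicate 1 (adjusted p = 0.0593).

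Of the 28 naive pluripotency genes measured, 6 rose (21.4%) and 1 fell, and the list median was -0.02 (0.05 with array spread as a covariate). Over all clusters 0.547% were called higher and 3.2% lower. Beside Nanog, Mras, Prdm14, Klf4 and Calcoco2, Eras, a constitutively active Ras of embryonic stem cells, rose by 0.44 (adjusted p = 0.0345), with its call kept in 1 of the 6 leave-one-out fits, the one without control replicate 3. Leaving out 1 array at a time gave 3 to 7 rises and 1 to 3 falls in the list. The gene that fell was Tfcp2l1, a naive transcription factor downstream of LIF and Wnt signals. It was at 9.70, 9.72 and 9.72 after the pulse and 10.11, 10.34 and 10.05 in controls, a change of -0.45 ± 0.079 (SE; adjusted p = 0.0014).

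Several central naive factors did not pass the test. Esrrb, an orphan nuclear receptor and a known Nanog target, was at 10.16, 10.23 and 10.10 after the pulse and 10.22, 10.40 and 10.22 in controls. These overlapped, and the change was -0.12 ± 0.106 (SE; adjusted p = 0.638). For Tbx3, Klf2 and Klf5 the changes were -0.06, -0.22 and 0.16 (adjusted p = 0.728, 0.116 and 0.31). Zfp42 (Rex1), a classical marker of undifferentiated cells, was at 11.44, 11.37 and 11.41 against 11.05, 11.07 and 11.28. Its groups did not overlap, yet the change of 0.27 had an adjusted p of 0.127. Dppa3 (Stella) changed by -0.27 (adjusted p = 0.365).

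Pou5f1 and Sox2 stayed at high signal in both groups. Pou5f1 was at 12.31, 12.21 and 12.19 after the pulse and 11.98, 12.33 and 12.23 in controls (0.06 ± 0.088 SE; adjusted p = 0.786). Sox2 differed by -0.07 ± 0.080 (SE; adjusted p = 0.742), with overlapping arrays. Among 24 genes of the general pluripotency list, 1 rose (4.17%, against 0.547% of all clusters) and 2 fell (8.33%, against 3.2%), with a median of -0.08. The one that rose was Dppa2, a chromatin factor of early embryos and germ cells: its dimmer cluster rose by 0.65 ± 0.100 (SE; adjusted p = 0.000427) and its brighter one by 0.37 (adjusted p = 0.00954). The brighter cluster lost its call without control replicate 1 (adjusted p = 0.0611), control replicate 2 (0.0527) or pulsed replicate 2 (0.0516). Phc1, a polycomb complex subunit, fell by 0.44 and Mycn by 0.32 on the log2 scale. Mycn lost its call in 5 of the 6 leave-one-out fits.

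**Figure D2:**
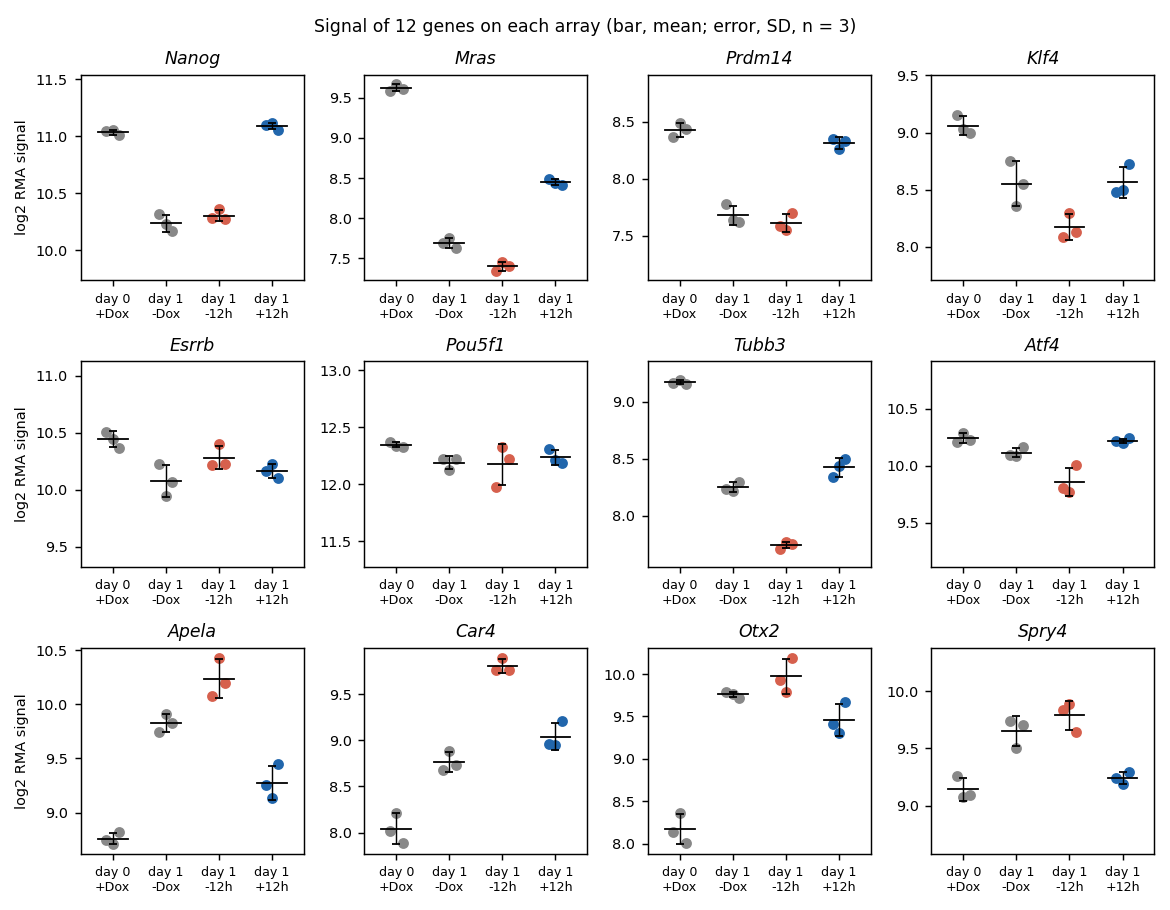
Log2 signal of 12 genes on each array (points), with mean and SD (n = 3), for day 0 +Dox, day 1 -Dox, the time-matched control (-12h) and the pulsed group (+12h); vertical ranges differ between panels. Nanog was within 0.06 of its day 0 mean after the pulse, Mras differed from its own by -1.18, and Apela, Car4 and Spry4 were lower in each pulsed array than in any control array.

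The epiblast list of 25 formative and primed genes had no rises and 3 falls (12.0%, against 3.2% of all clusters), with a median of -0.16. Otx2, which drives the step from naive to formative cells, was at 9.41, 9.30 and 9.67 after the pulse and 9.94, 9.79 and 10.19 in controls. It fell by 0.51 ± 0.109 (SE; adjusted p = 0.00706). Otx2 had risen by 1.59 in the first day of withdrawal, and the pulsed mean was still 1.29 above day 0 (adjusted p = 2.92e-08) and was not called against day 1 -Dox (-0.30; adjusted p = 0.308). The call was lost without pulsed replicate 2 (adjusted p = 0.0695). Cldn6, a tight junction gene, and Tead2, a Hippo pathway factor, fell by 0.36 and 0.32 on the log2 scale; Cldn6 was not called without control replicate 2 (adjusted p = 0.0593) or pulsed replicate 1 (0.0595), nor Tead2 without control replicate 2 (0.0724) or pulsed replicate 2 (0.0554). Fgf5, a primed epiblast marker, changed by -0.26 (adjusted p = 0.185).

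Outside the pluripotency lists, the named rises included Rab27a and Tnfsf9. Rab27a, a GTPase of vesicle release, was at 9.78, 9.70 and 9.81 after the pulse against 8.92, 8.92 and 9.35 (0.71 ± 0.103 SE; adjusted p = 0.000201). Tnfsf9, the ligand of the 4-1BB receptor, was at 6.70, 6.69 and 6.86 against 6.20, 6.07 and 6.19 (0.60 ± 0.078 SE; adjusted p = 6.33e-05). Separate groups of arrays were a condition for naming these genes. Naaa, a lysosomal amidase gene, rose by 0.55 to 8.88, above its day 0 level by 0.38 (adjusted p = 0.00308). Spink1, a secreted protease inhibitor, rose by 0.59, Prr13 by 0.56 and Soga3 by 0.55. Soga3 lost its call without control replicate 3 (adjusted p = 0.0509) or pulsed replicate 1 (0.0533). Olfr237, an olfactory receptor gene with signal under 6 in these 6 arrays, rose by 0.65 in the full fit (adjusted p = 0.0349) and kept the call in 1 of the 6 leave-one-out fits, without control replicate 1.

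The largest falls of protein-coding genes were led by Apela, which encodes the peptide hormone Elabela (Toddler). Its signal was 9.25, 9.13 and 9.45 in pulsed arrays and 10.08, 10.43 and 10.20 in controls. The fall was 0.96 on the log2 scale (SE 0.120, adjusted p = 4.41e-05). Apela had risen by 1.07 in the first day of withdrawal and by a further 0.41 in the control. The pulsed mean differed from day 1 -Dox by -0.55 (adjusted p = 0.0233) and was 0.52 above day 0 (adjusted p = 0.00504). Greb1l, a gene of retinoic acid and kidney development, fell in both of its clusters, by 0.85 and 0.75. Car4, a membrane carbonic anhydrase, was at 8.96, 8.95 and 9.20 after the pulse and 9.76, 9.90 and 9.76 without it (-0.77 ± 0.083 SE; adjusted p = 6.22e-06).

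Serinc5, a membrane protein known as a retroviral restriction factor, fell by 0.73, and Dock6, an exchange factor for Rac and Cdc42, by 0.70 on the log2 scale. The other 14 Dock6 clusters changed by -0.12 to -0.52, and 8 of them were called. Car4, Greb1l and Serinc5 were called higher in the control than at day 1 -Dox, by 1.04, 0.86 and 0.73, while their pulsed arrays were not called against day 1 -Dox (adjusted p = 0.169, 0.995 and 0.997). For Car4 the means were 8.04 at day 0, 8.76 at day 1, 9.80 in the control and 9.04 in the pulsed group. In the full set, 1462 clusters (6.25%) were called between the control and day 1 -Dox and 157 (0.671%) between the pulsed group and day 1 -Dox; these comparisons share arrays with each other and with the pulse. Ube2v1 and Camta1 were each called lower in 1 dim cluster (adjusted p = 0.0491 and 0.0354). None of their other clusters was called. Ube2v1 lost its call in each of the 6 leave-one-out fits (adjusted p from 0.0501 without pulsed replicate 3 to 0.299 without pulsed replicate 1) and Camta1 in 5 of them.

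The bases upstream of 3 of these genes are shown. Mras had the largest rise and Apela the largest fall of a protein-coding gene. Vstm5, an immunoglobulin-domain membrane protein that rose by 0.53, was chosen because its window holds one of the motifs searched. Each run holds the 250 bases before the RefSeq start site (GRCm38.p6), 5′ to 3′ on the gene's strand. Capitals mark matches to TAATGG, a homeodomain core that Nanog can bind, or its reverse complement CCATTA. Mras lies at chr9:99436713-99436962 on the minus strand, Apela at chr8:65037337-65037586 on the minus strand and Vstm5 at chr9:15238795-15239044 on the plus strand.
Mras: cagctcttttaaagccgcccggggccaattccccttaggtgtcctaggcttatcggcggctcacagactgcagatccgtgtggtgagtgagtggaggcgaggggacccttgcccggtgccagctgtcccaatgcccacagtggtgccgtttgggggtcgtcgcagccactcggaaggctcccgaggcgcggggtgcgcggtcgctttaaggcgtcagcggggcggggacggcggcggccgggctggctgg
Apela: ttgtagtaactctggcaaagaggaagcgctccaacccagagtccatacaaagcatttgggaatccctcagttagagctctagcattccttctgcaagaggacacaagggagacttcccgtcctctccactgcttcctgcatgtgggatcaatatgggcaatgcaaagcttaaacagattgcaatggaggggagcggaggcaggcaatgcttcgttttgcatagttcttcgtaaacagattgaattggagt
Vstm5: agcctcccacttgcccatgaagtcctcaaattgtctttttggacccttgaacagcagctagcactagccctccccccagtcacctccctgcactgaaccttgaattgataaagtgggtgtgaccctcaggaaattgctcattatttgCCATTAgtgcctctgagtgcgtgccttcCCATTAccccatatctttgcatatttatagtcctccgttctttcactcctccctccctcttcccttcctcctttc
The search covered both strands for TAATGG, for the POU-factor octamer ATGCAAAT and for TCAAGGTCA, an element of Esrrb and related receptors; none of the 3 is contained in another. Vstm5 holds TAATGG at 2 places, and Mras and Apela hold none of the 3 motifs in these windows. Windows were found for 47 of the 75 named genes that were called. Among their 58 windows TAATGG was in 2 (3.45%, Nodal and Vstm5), ATGCAAAT in 1 (1.72%, E2f3) and TCAAGGTCA in 0. Of all 32851 RefSeq windows of the same length, 6.57%, 1.6% and 0.387% held them.

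Several microRNA genes fell that lie in the runs of Mir17 on chromosome 14 and of Mir106a on chromosome X. They are processed from polycistronic transcripts, and their products repress cell cycle inhibitors and pro-apoptotic transcripts. Of 305 clusters with a single microRNA symbol, 13 were called lower (4.26%) and 0 higher. This share is near the 3.2% called lower over all clusters, and the median change of the 305 was 0.03. At an unadjusted p under 0.05, 30 were lower and 10 higher. The microRNA genes were singled out after their values were seen. With array spread as a covariate, 14 were lower and 2 higher. The array probes the precursor region, so the values do not measure the mature strands, and short clusters of near-identical family members are uncertain.

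Mature strands are given for called genes of the runs of Mir17 and Mir106a, and for miR-15b, whose gene fell the most. Capitals mark their seeds (bases 2 to 8), to show which are shared. The sequences are from RefSeq GRCm38.p6.
miR-106a-5p: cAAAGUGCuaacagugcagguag
miR-17-5p: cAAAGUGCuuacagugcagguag
miR-20a-5p: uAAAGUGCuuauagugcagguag
miR-20b-5p: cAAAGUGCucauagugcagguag
miR-18a-5p: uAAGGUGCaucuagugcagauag
miR-19a-3p: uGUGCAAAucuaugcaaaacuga
miR-19b-3p: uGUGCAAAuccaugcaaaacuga
miR-15b-5p: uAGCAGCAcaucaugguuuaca
The first 4 share the seed AAAGUGC, miR-18a carries AAGGUGC, miR-19a and miR-19b share GUGCAAA, and miR-15b carries AGCAGCA. Mir17, Mir18, Mir19a, Mir20a and Mir19b-1 lie in 1 run on chromosome 14, chr14:115043671-115044391, and Mir19b-2, Mir20b and Mir106a at chrX:52741983-52742567, as RefSeq places them.

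Mir106a was at 5.90, 6.04 and 6.33 in pulsed arrays and 7.20, 6.99 and 7.38 in controls. It fell by 1.10 on the log2 scale (SE 0.162, adjusted p = 0.000217). The 5 chromosome 14 genes fell by 0.50 (Mir17), 0.62 (Mir18), 0.72 (Mir19a), 0.64 (Mir20a) and 0.55 (Mir19b-1). A further cluster there, annotated Mir92-1;Mir17hg for a microRNA and the host transcript, fell by 0.50 (adjusted p = 0.00729). All 6 had risen by 0.77 to 1.01 in the first day of withdrawal. On chromosome X, Mir20b fell by 0.67 and Mir19b-2 by 0.70, while Mir363 and Mir92-2 changed by -0.68 and -0.22 without passing the test (adjusted p = 0.122 and 0.226).

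Mir15b fell the most of any cluster, by 1.23 on the log2 scale (SE 0.219; adjusted p = 0.00168), from 6.37, 6.14 and 6.56 to 5.27, 5.01 and 5.09. Its neighbour on chromosome 3, Mir16-2, changed by -0.13 (adjusted p = 0.754). Mir300, Mir382 and Mir434, from the imprinted microRNA region of chromosome 12, fell by 0.85, 0.83 and 0.55, and Mir301b by 0.44. Mir434 was dim, with a mean signal of 4.61. Near Mir300 and Mir382, Mir376b, Mir376a, Mir134 and Mir668 changed by -0.05, -0.26, -0.09 and 0.04 and were not called. Mir136, near Mir434, changed by -0.47 (adjusted p = 0.0659). Of the 13 genes and the Mir92-1 cluster, 14 in all, 8 were called without control replicate 3, 7 without pulsed replicate 2, 10 without pulsed replicate 1 and 12 without each of the other 3 arrays. Snora44, a small nucleolar RNA, had control arrays at 8.78, 9.82 and 8.31 and pulsed arrays at 8.03, 8.10 and 8.09; without control replicate 2 its change was -0.47 (adjusted p = 0.232).

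Of the FGF and ERK genes, 6 of 28 fell (21.4%), 2 rose, and the list median was -0.11; over all clusters 3.2% were lower and 0.547% higher. Spry4, an inhibitor of receptor tyrosine kinase signalling that ERK itself induces, was at 9.24, 9.19 and 9.30 after the pulse and 9.83, 9.89 and 9.65 in controls. It fell by 0.55 on the log2 scale (SE 0.106; adjusted p = 0.00372), to within 0.10 of the day 0 mean. Fgfr2, a receptor of FGF4, fell by 0.53 (SE 0.067; adjusted p = 4.93e-05), and the pulsed mean was below day 1 -Dox (adjusted p = 0.00301). The ERK phosphatase gene Dusp4 fell by 0.52, and the Sprouty genes Spry1 and Spry2 by 0.40 and 0.39. Dusp4 lost its call without pulsed replicate 2 (adjusted p = 0.0516), Spry1 in 3 and Spry2 in 4 of the 6 leave-one-out fits. The list then gave 2 to 5 falls. The genes that rose, Ier3 and Ccnd1, and Fgfbp1, which fell, were called in 1, 1 and 2 of those fits.

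In the list of LIF receptor and STAT3 targets, 4 of 24 fell (16.7%) and 2 rose (median 0.00), against 3.2% lower and 0.547% higher over all clusters. The kinase genes Pim3 and Pim1 fell by 0.41 and 0.35, beside Tfcp2l1 and the feedback inhibitor Socs3 (-0.26). Pim3 held its call with each array left out; Pim1 lost it in 2 of these fits and Socs3 in 5. The list of Nodal signalling, which patterns the epiblast and the primitive streak, had 5 falls among 19 genes (26.3%, against 3.2% of all clusters; median -0.07). They included the effector Smad3 (-0.41; adjusted p = 0.00187), the ligand Nodal (-0.35; adjusted p = 0.0203), the receptor Acvr2b (-0.34) and the repressors Ski (-0.35) and Skil (-0.31). Smad3 was called in each leave-one-out fit, and the list gave 1 to 6 falls in them, 1 without pulsed replicate 2.

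Among 20 BMP genes, the ligand Bmp4 rose and the target Id2 fell (5.0% each, against 0.547% and 3.2% of all clusters). Bmp4 was at 8.67, 8.71 and 8.71 against 8.23, 8.16 and 8.30, without overlap (0.47 ± 0.086 SE; adjusted p = 0.00221). Id2 was at 9.22, 9.11 and 9.27 against 9.47, 9.89 and 9.90 (-0.55 ± 0.109 SE; adjusted p = 0.00436). Among 23 Wnt genes, 4 fell (17.4%, against 3.2% of all clusters) and 2 rose (8.7%, against 0.547%). The receptor Fzd7, a marker of undifferentiated cells, fell from 10.34, 10.35 and 10.34 to 9.76, 9.59 and 9.80 (-0.63 ± 0.084 SE; adjusted p = 8.94e-05), and the co-receptor Lrp5 by 0.42. The other 4, Lrp6, Znrf3, Porcn and Ccnd1, were each called in at most 2 of the 6 leave-one-out fits.

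Targets of p53, the stress-activated tumour suppressor, had the largest share of falls of any list: 9 of 19 fell (47.4%, against 3.2% of all clusters) and 0 rose, with a median of -0.28. Ei24, an endoplasmic reticulum membrane protein, was at 9.93, 9.88 and 10.03 after the pulse and 10.56, 10.62 and 10.40 in controls (-0.58 ± 0.078 SE; adjusted p = 8.97e-05). Trp53inp1, a stress-induced cofactor, fell by 0.39 (SE 0.065; adjusted p = 0.00088), and the BH3-only gene Pmaip1 (Noxa) by 0.38. Zmat3 and Phlda3, an RNA-binding protein and an Akt inhibitor, fell by 0.63 and 0.60. Both lost the call without control replicate 2 (adjusted p = 0.0706 and 0.0687). Btg2, Polk, Mdm4 and the p53 ligase Mdm2 fell by 0.39, 0.35, 0.34 and 0.34. They lost their calls in 1, 5, 2 and 2 of the leave-one-out fits. The list gave 9 falls with array spread as a covariate, 8 without control replicate 3 and 4 to 9 over the leave-one-out fits. Trp53inp1 and Zmat3 had risen between day 1 -Dox and the control, by 0.35 and 0.49 (adjusted p = 0.00241 and 0.0251), and neither was called between the pulsed group and day 1 -Dox (adjusted p = 0.948 and 0.868).

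Of 26 G1 and Myc genes, 5 fell (19.2%, against 3.2% of all clusters), including Rb1 (-0.52) and Mxi1 (-0.29). Ccnd1 rose (0.28; 3.85% of the list, against 0.547%). With 1 array left out 1 to 4 fell. Rb1 lost its call without control replicate 2 (adjusted p = 0.0698), control replicate 3 (0.0788), pulsed replicate 1 (0.0589) or pulsed replicate 2 (0.126). Mxi1 lost it without pulsed replicate 2 (0.0591). No gene of 25 in DNA replication and mitosis was called by limma (median 0.01; 6 at an unadjusted p under 0.05, 3 in each direction). With array spread as a covariate 3 of them were higher. Of 26 genes of the ATF4 stress response, which adjusts amino acid supply, 4 rose (15.4%, against 0.547% of all clusters) and 0 fell (median 0.09). With 1 array left out this list gave 1 to 4 rises and 0 to 2 falls, with 2 falls without control replicate 3. Atf4 itself was at 10.21, 10.20 and 10.24 after the pulse and 9.81, 9.77 and 10.00 in controls (0.36 ± 0.072 SE; adjusted p = 0.0051). Slc7a3, a cationic amino acid transporter, rose by 0.38, and Trib3 and Mthfd2 by 0.33 and 0.32. Slc7a3 lost its call without control replicate 2 (adjusted p = 0.0696) or pulsed replicate 2 (0.057), Trib3 without control replicate 2 (0.066) or pulsed replicate 1 (0.0765), and Mthfd2 in all 6 fits. In the interferon list 3 of 19 fell (15.8%, against 3.2% of all clusters) and 0 rose. These were Irf1 (-0.64 ± 0.086 SE, adjusted p = 8.94e-05), Bst2 and B2m. A dimmer Irf1 cluster changed by -0.03 ± 0.099 (SE, adjusted p = 0.925) with overlapping arrays. Respiratory chain, cholesterol synthesis and 2-cell-like genes (26, 17 and 7 measured) had no calls by limma; 2, 3 and 0 of them had an unadjusted p under 0.05. In the glycolysis list of 23, Ndrg1 rose (0.27) and Pdk1 fell (-0.28), 4.35% each way. Each lost its call in 4 of the 6 leave-one-out fits. In the polycomb list of 22 only Phc1 was called (4.55% lower). Of 10 housekeeping genes, B2m fell (-0.53) and Tfrc rose (0.28), which is 10% each way, against 3.2% lower and 0.547% higher over all clusters. Both lost their calls in at least 4 leave-one-out fits.

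**Figure D3:**
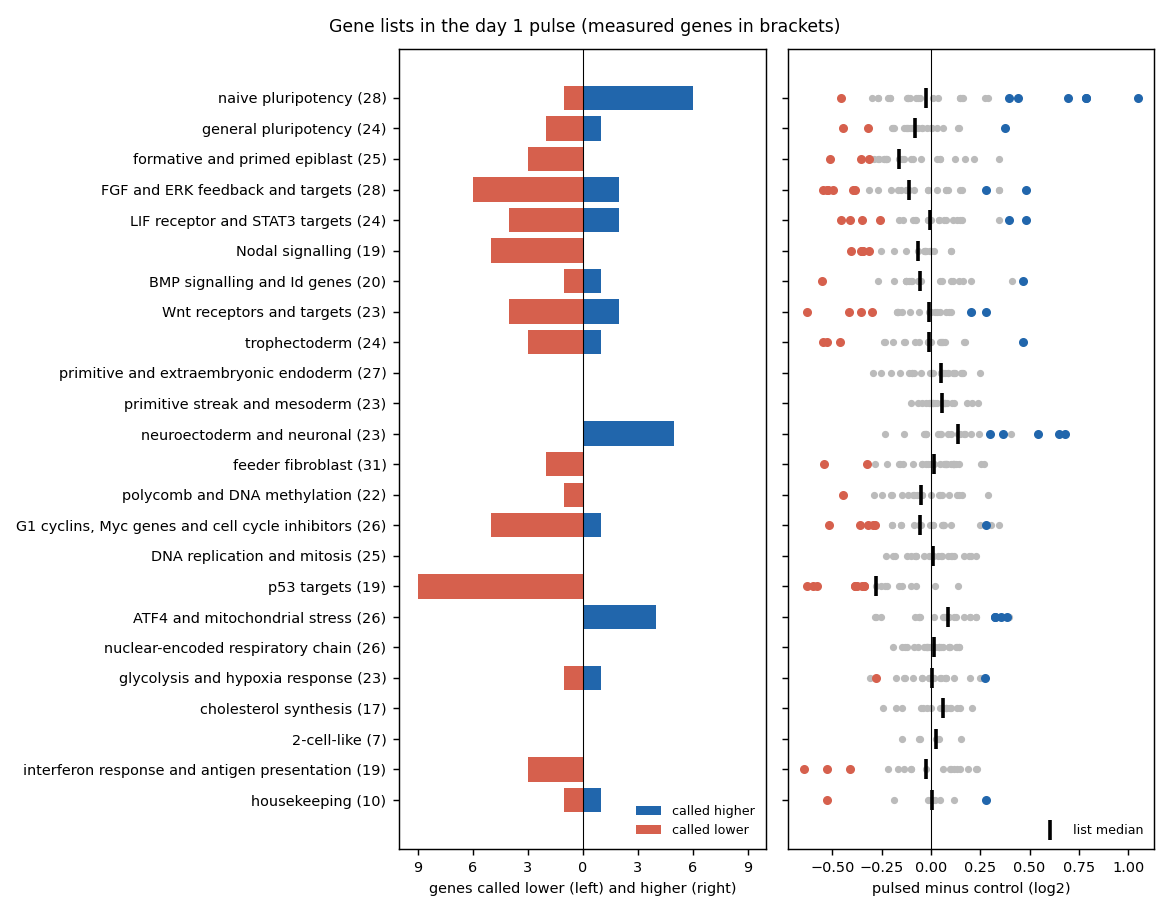
Left, genes of each list called lower or higher after the pulse, with the number measured in brackets. Right, the change of each gene (log2; coloured where called) and the list median; p53 targets have 9 falls and the lowest median (-0.28), and neuronal genes 5 rises and the highest (0.14).

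Markers of the cell types that the culture could hold were read as whole lists. The summed linear signal of 10 stem cell markers was 35750 to 36342 in pulsed and 34991 to 36410 in control arrays. That of 31 feeder fibroblast genes was 10917 to 11354 in pulsed and 11520 to 12001 in control arrays, without overlap. In the feeder list 2 of 31 genes fell (6.45%, against 3.2% of all clusters). These were Fn1 (-0.54 ± 0.074 SE, adjusted p = 9.53e-05) and Mmp2 (-0.32, adjusted p = 0.0448, called in none of the leave-one-out fits). The list median was 0.02, and 19 of the 31 changes were above 0 (61.3%, against 53.4% of all clusters). Fn1 was at 10.70, 10.66 and 10.55 in pulsed and 11.05, 11.27 and 11.22 in control arrays. Bright genes weigh most in a linear sum. Whether the lower feeder sum reflects more than Fn1 was not tested. Fewer fibroblasts and less RNA per cell cannot be told apart in bulk samples, and the feeder signal's part in the other results was not tested.

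Of 24 trophectoderm genes 3 fell (12.5%, against 3.2% of all clusters), among them Fgfr2, and Bmp4 rose (4.17%, against 0.547%). Their signal summed to 17446 to 17503 in pulsed and 18949 to 19673 in control arrays. Krt7, a simple epithelial keratin, was at 8.030, 8.025 and 8.001 against 8.50, 8.64 and 8.56, and it fell by 0.55 ± 0.063 (SE; adjusted p = 1.68e-05). Peg10, an imprinted placental gene, fell by 0.46 (adjusted p = 0.00196). No gene of the endoderm (27) or of the streak and mesoderm list (23) was called by limma (3 and 0 at an unadjusted p under 0.05), and Gata6 changed by 0.09 (adjusted p = 0.672). In the neuronal list 5 of 23 rose (21.7%, against 0.547% of all clusters), 0 fell, and its sum was 7850 to 8313 in pulsed and 7071 to 7437 in control arrays.

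Tubb3, a neuronal tubulin also present in stem cells, was at 8.34, 8.44 and 8.50 after the pulse and 7.71, 7.77 and 7.75 in controls (0.68 ± 0.085 SE; adjusted p = 4.41e-05). Gng3, a G protein subunit, was at 9.45, 9.34 and 9.54 against 8.61, 8.82 and 8.95 (0.65 ± 0.105 SE; adjusted p = 0.000647). Both genes were called in each leave-one-out fit. Ina, Gap43 and Pax6 rose by 0.54, 0.36 and 0.30 and were called in 2, 1 and 1 of the 6. All of Tubb3, Gng3 and Gap43 had fallen in the first day of withdrawal.

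Genes that withdrawal had changed are a reference for the pulse, since day 0 and day 1 -Dox arrays are not among those of the pulse comparison. That comparison called 1522 clusters (6.51%). Of 707 that fell (3.02%), 57 rose after the pulse (8.06%, against 0.547% of all clusters) and 6 fell. Of 815 that rose (3.49%), 199 fell after the pulse (24.4%, against 3.2%) and 3 rose. The median pulse change was 0.06 in the clusters that had fallen and -0.19 in those that had risen, and 66.8% of the first were above 0 and 86.4% of the second below it. Of all tested clusters, 53.4% were above 0. In the other direction, 44.5% of the pulse rises and 26.6% of the pulse falls were withdrawal genes.

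The 256 clusters called in opposite directions had pulse changes that were a median of 89.8% of the size of their withdrawal changes. The 2 changes have different starting points, since the control had moved for a further 12 h, so this share is no measure of a return to day 0. Car4 was still 1.00 above day 0 after the pulse (adjusted p = 2.86e-08) and the Greb1l cluster with the larger fall 0.78 (adjusted p = 0.000183). Krt7 had risen by 0.22 in the first day and by 0.63 in the control's further 12 h, and after the pulse it was 0.30 above day 0 (adjusted p = 0.00221). The share describes clusters selected for a pulse call; over all 1522 withdrawal clusters the slope of the pulse change, its sign turned, on the withdrawal change was 0.347. The 256 became 392 (134 rises and 258 falls) with array spread as a covariate. They became 146 without control replicate 2, 140 without pulsed replicate 1 and 112 without pulsed replicate 2, and 173 to 233 without any other array.

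**Figure D4:**
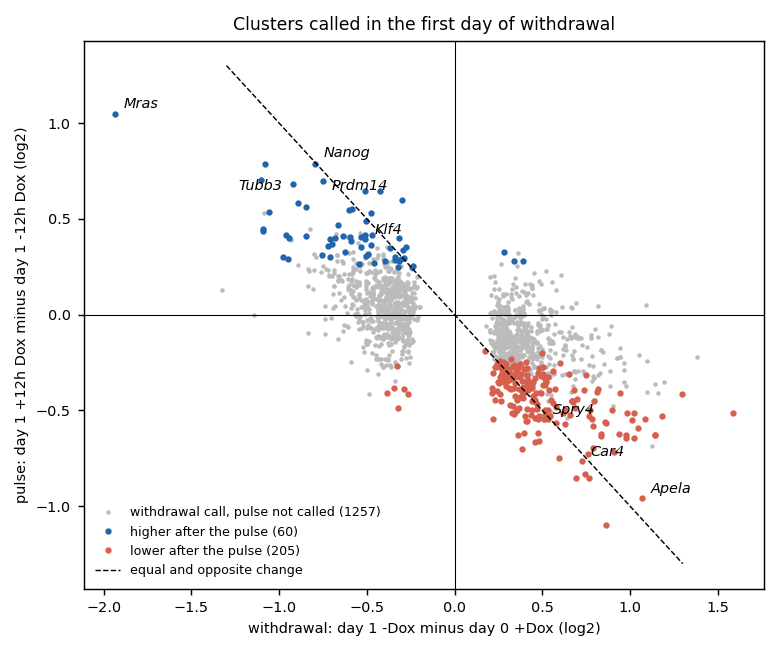
Pulse change against withdrawal change (both log2) for the 1522 clusters called in the first day of withdrawal, coloured where the pulse was called; the dashed line marks equal and opposite changes. Called points lie mostly opposite to withdrawal, 57 of them rises of clusters that had fallen and 199 falls of clusters that had risen.

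The same pulse was given on days 3 and 5, on arrays not shared with day 1. The day 3 pulse called 9 clusters (0.0385%; 0.00428% higher and 0.0342% lower) and the day 5 pulse 2860 (12.2%; 5.13% higher and 7.1% lower). At an unadjusted p under 0.05 there were 3800 on day 1, 3408 on day 3 and 7651 on day 5. On day 5 the array interquartile range was 2.519, 2.935 and 2.927 in controls and 2.715, 2.438 and 2.434 in pulsed arrays. The part of this spread in the day 5 count was not tested. Of the 749 day 1 falls, 6 were also called lower on day 3 and 244 on day 5, and 93.3% and 86.5% had the same sign (52.7% and 46.1% of all clusters were negative). Of the 128 rises, 1 and 20 were called higher, and 69.5% had the same sign on either day (47.3% and 53.9% of all clusters were positive). Their median change was 0.35 on day 1, 0.09 on day 3 and 0.07 on day 5; for the falls it was -0.35, -0.14 and -0.16.

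Nanog rose by 0.79, 0.80 and 0.78 on days 1, 3 and 5, and the day 1 value differed from day 3 by -0.01 ± 0.113 (SE) and from day 5 by 0.01 ± 0.113. The change of the brighter Mras cluster was 1.05 on day 1, 0.13 on day 3 and 0.03 on day 5. Its differences were called, at 0.92 against day 3 (adjusted p = 6.67e-05) and 1.01 against day 5 (adjusted p = 9.03e-06). The dimmer Mras cluster did not show this pattern, with changes of 0.32, 0.17 and 0.43 on days 1, 3 and 5. Its differences were not called, at 0.15 against day 3 (adjusted p = 0.966) and -0.11 against day 5 (adjusted p = 0.868). Against day 3 (0.00855% of clusters called) the other called difference was Tubb3, at 0.74 (adjusted p = 0.0207), whose changes were 0.68, -0.06 and 0.49. Tubb3 was not called against day 5 (0.19; adjusted p = 0.54).

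Against day 5, 26 clusters differed (0.111%). Spry4 fell on day 1 (-0.55) and rose on day 5 (0.37; adjusted p = 0.0255), a difference of -0.92 (adjusted p = 0.00992). Zfp979, a zinc finger gene, had 0.45 on day 1, not called, and fell by 0.50 on day 5, a difference of 0.95 (adjusted p = 0.0428). Dppa2 (its dimmer cluster) and Vstm5 rose on day 1 and changed by -0.10 and -0.22 on day 5, not called; their differences from day 5 were 0.75 and 0.76 (adjusted p = 0.0334 and 0.0428). Krt7, Peg10 and Car4 were lower on day 1 by 0.64, 0.59 and 0.57 relative to their day 5 change. Atf4 differed by 0.50. A cluster shared by 4 Sprr2 genes, Sprr2a2;Sprr2a3;Sprr2b;Sprr2a1, changed by 0.0079 on day 1 and rose by 0.77 on day 5. Prdm14 rose on days 1 and 5 (0.70 and 0.28), and its difference between them was not called (0.42; adjusted p = 0.111). On day 3 its pulsed arrays, at 8.23, 8.14 and 8.32, also lay above the controls, at 7.95, 7.91 and 7.76. Apela changed by -0.96 on both days, with a difference of 0.0027 ± 0.169 (SE). The count against day 5 was unstable, with 418 clusters without day 1 control replicate 3, 349 without day 5 control replicate 1, and 3 to 36 without any other array.

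**Figure D5:**
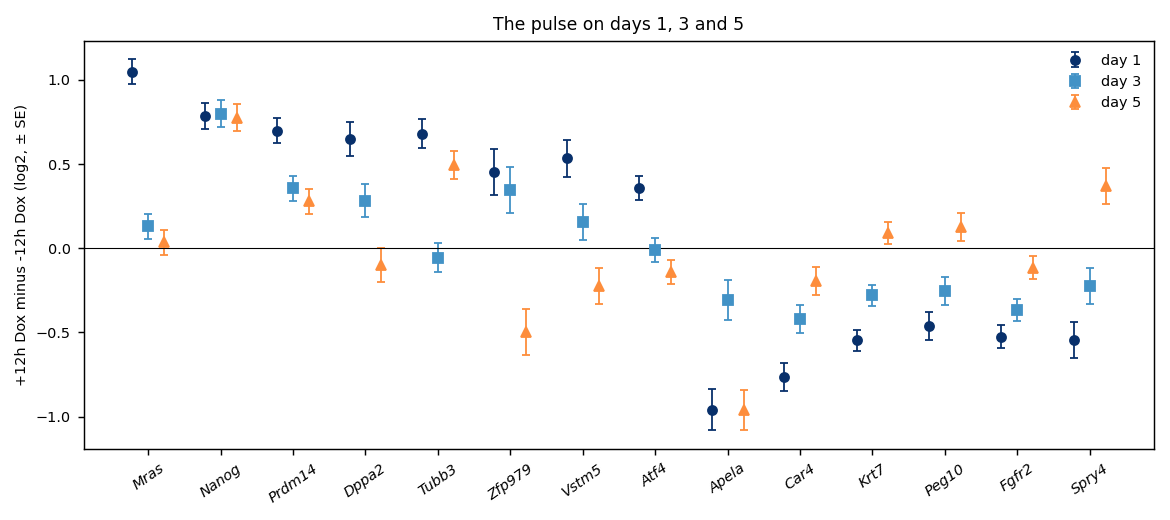
Pulse minus time-matched control (log2 ± SE, 3 arrays against 3) for 14 genes on days 1, 3 and 5. Nanog rose by 0.78 to 0.80 on each day. Mras, drawn by its brighter cluster, was called on day 1 alone of these days, and Spry4 fell on day 1 and rose on day 5.

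The 201 clusters whose calls held also include matrix and signalling genes that no list covered, named here after their values were seen. Ccn1 and Ccn2 (Cyr61 and Ctgf), secreted matrix proteins and well-known YAP targets, fell by 0.62 (adjusted p = 0.000588) and 0.58 (adjusted p = 0.000135). Sdc4, a heparan sulphate proteoglycan, fell by 0.63 (adjusted p = 2.73e-05). Nfkbia, the feedback inhibitor of NF-kappaB, fell by 0.54 (adjusted p = 8.94e-05), Dusp1 by 0.50 and the Hedgehog receptor gene Ptch1 by 0.55. Among the 24 rises that held were Gpx1, a glutathione peroxidase (0.53; adjusted p = 0.0026), and Tubb2b, another neuronal tubulin (0.49; adjusted p = 0.00385). When the 6 arrays were fitted alone, 62 of the 201 were called, 9 higher and 53 lower. Among them were Nanog, Prdm14, Apela, Car4, Fgfr2, Fzd7 and Krt7, and the brighter clusters of Mras and Irf1.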

How the data were processed

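The series holds 30 Affymetrix Mouse Gene 1.0 ST arrays, 1 per RNA sample. The deposited values are log2 signals per transcript cluster, made by the authors; the submitters' processing notes name RMA and Affymetrix Expression Console. Software versions and genome build are not given in the sources used here. Arrays have no read depth; 3 arrays a group limit the precision. Of 28815 clusters, 23385 carry a gene symbol in the platform annotation and were tested (1605 carry several). limma 3.58.1 in R 4.3.3 fitted 1 mean for each of 10 groups over 30 arrays, with Benjamini-Hochberg adjustment in each comparison across all 23385 clusters. A difference between days was a contrast of the same fit. The step was tested on simulated data.

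Named genes are Nanog, the 15 largest called rises and falls without overlap of arrays, up to 4 called members of each of 24 lists, 13 core genes and up to 5 differences between days. A gene with several clusters is given by its brightest unless selected itself. Members and lists were chosen with earlier results of these data known. Replicate numbers were not used as pairs, since the labels do not state that they pair arrays. Same-numbered arrays deviated together with correlations of -0.071, 0.017 and 0.245. A fit with replicate as a block is among the alternatives. Alternatives are in the closing section.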

Additional observations from a re-analysis of the deposited data

Results flagged for a closer look

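The pulse effect differed between days by a called contrast in 2 clusters for day 1 against day 3 and in 26 for day 1 against day 5, in limma's test of the difference itself. Against day 3 these were the brighter Mras cluster (0.92) and Tubb3 (0.74). The dimmer Mras cluster was called against neither day. Against day 5, the named genes with a larger value on day 1 were Mras (1.01), Zfp979 (0.95), Vstm5 (0.76), Dppa2 (0.75) and Atf4 (0.50). Those with a lower value on day 1 were Spry4 (-0.92), the Sprr2 cluster (-0.77), Krt7 (-0.64), Peg10 (-0.59) and Car4 (-0.57). The groups of 3 arrays are too small for a test of single outlying arrays.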

How the results depend on the processing

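The 877 calls of the pulse became 1030 with trend and robust variances, 595 with median centring, 959 with quantile normalization, 1097 with array spread as a covariate, 1225 without the dimmest 40% of clusters and 864 with unnamed clusters included. They became 4573 with array weights, 74 with the 6 arrays fitted alone, 54 and 3 with minimum changes of 1.5-fold and 2-fold, and 288 to 906 with 1 array left out. Higher calls made up 14.6% of them in the fit as reported, 32.1% with quantile normalization, 38.2% with array spread, 36.5% with array weights and 31.8% without control replicate 3. With the replicate block within a day, fitted to the compared groups alone, 172 were called against 74 without the block in the same arrays (27 of the 172 higher; 3354 at an unadjusted p under 0.05), 94 of them against withdrawal, and 0 for either difference between days (1538 and 1051 at an unadjusted p under 0.05 for days 3 and 5).

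The 256 clusters opposite to withdrawal became 1109 with array weights, 392 with array spread, 49 with the compared groups alone and 112 to 233 with 1 array left out. The 2 differences from day 3 became 12 with trend and robust variances, 1142 with array weights, 21 with quantile normalization, 61 with array spread, 10 without dim clusters, 1 with the compared groups alone and 1 to 3 with 1 array left out. The 26 differences from day 5 became 71, 4827, 216, 315, 74 and 1 in the same order, 9 with median centring, 41 with unnamed clusters included, and 3 to 418 with 1 array left out. Values that changed sign were Tbx3 (0.011 with array weights, 0.029 with quantile normalization), the Sprr2 cluster (-0.0052 with array spread, -0.039 to 0.051 with 1 array left out), Pou5f1 (-0.037 to 0.14 with 1 array left out) and Sox2 (-0.17 to 0.025 with 1 array left out). None of these was called in the fit as reported. The cause of these shifts was not tested. Dim clusters, including several microRNA and small nucleolar RNA genes, are limited by signal over background.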
